A study of Rattus norvegicus with 35 samples.

Results

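The 9 genes described here encode the nuclear receptors through which the liver senses foreign chemicals, their dimerisation partners, the coregulators they recruit and a pair of receptors that govern hepatocyte expression. They were taken by gene symbol from the platform annotation: Nr1i2, Nr1i3, Rxra, Rxrb, Hnf4a, Nr3c1, Ncoa1, Ncor1 and Ppargc1a. These are 9 of 14217 genes on the array and 18 of 31042 probe sets. Nr1i2, Nr1i3, Rxra and Rxrb had 1 probe set each, Nr3c1 had 2, and Hnf4a, Ncoa1, Ncor1 and Ppargc1a had 3 each. The probe set with the highest mean score stands for a gene unless another is named. Wistar Han IGS rats had been fed from gestation day 6 to postnatal day 92, and their liver RNA was hybridised to Affymetrix rat genome arrays. The control diet held 0 ppm (n = 7). The treated diets held myclobutanil at 500 ppm (n = 5) or 2000 ppm (n = 4), propiconazole at 500 ppm (n = 3) or 2500 ppm (n = 4), or triadimefon at 500 ppm (n = 5) or 1800 ppm (n = 4). The compounds are fungicides that share a triazole ring, with a nitrile in myclobutanil, a cyclic ketal in propiconazole and a ketone in triadimefon. Of 35 arrays listed, 3 hold no values (1 from the myclobutanil 2000 ppm group, 2 from the propiconazole 500 ppm group), and the submitters mark them as not used in their final analysis. The design text calls the animals biological replicates. The labels do not say which animals shared a litter, nor their sex.

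Nr1i3 encodes the constitutive androstane receptor (CAR) and Nr1i2 the pregnane X receptor (PXR). Each binds DNA as a heterodimer with a retinoid X receptor, encoded by Rxra and Rxrb, and induces drug-metabolising enzymes such as the Cyp2b and Cyp3a cytochromes P450. Hnf4a encodes a receptor that maintains hepatocyte identity, and Nr3c1 the glucocorticoid receptor, a regulator of metabolism and of the abundance of CAR and PXR themselves. Ncoa1 (SRC-1) and Ppargc1a (PGC-1α) encode coactivators of these receptors, and Ncor1 a corepressor. CAR is held in the cytosol by a chaperone complex and its activation by drugs is largely a matter of location and binding, which a transcript level does not measure.

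The promoters of Nr1i2 and Nr1i3, the pair of drug-sensing receptors, and both promoters listed for Hnf4a are shown. From which start the transcripts measured here came was not tested. RefSeq windows on build GRCr8, from 250 bases before to 50 bases after a transcription start, were found for 9 of the 9 genes (11 windows). The windows lie at chr11:75965467-75965766 (Nr1i2), chr13:86165170-86165469 (Nr1i3), chr3:172605970-172606269 (first Hnf4a window) and chr3:172641586-172641885 (second Hnf4a window), all on the plus strand. Capitals mark matches on either strand to 5 motifs that do not overlap in these windows. AGGTCA is the consensus binding element of many nuclear receptors. A variant of that element, AGTTCA, was searched as well. The element of steroid receptors was searched as AGAACA. The general promoter elements were TATAAA and, as a further one, CCAAT. A match to the last on the other strand reads ATTGG.
Nr1i2: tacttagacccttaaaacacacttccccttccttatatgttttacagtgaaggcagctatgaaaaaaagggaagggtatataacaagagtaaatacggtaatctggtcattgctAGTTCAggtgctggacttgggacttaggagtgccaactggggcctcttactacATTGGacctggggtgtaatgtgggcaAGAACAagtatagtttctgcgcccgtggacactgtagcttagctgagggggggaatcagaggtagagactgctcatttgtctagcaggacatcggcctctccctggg
Nr1i3: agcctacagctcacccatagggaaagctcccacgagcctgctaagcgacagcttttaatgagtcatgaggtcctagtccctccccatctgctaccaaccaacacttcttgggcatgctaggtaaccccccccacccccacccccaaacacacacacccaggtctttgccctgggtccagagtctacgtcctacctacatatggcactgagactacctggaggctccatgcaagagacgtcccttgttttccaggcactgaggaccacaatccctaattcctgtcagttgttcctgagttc
Hnf4a first window: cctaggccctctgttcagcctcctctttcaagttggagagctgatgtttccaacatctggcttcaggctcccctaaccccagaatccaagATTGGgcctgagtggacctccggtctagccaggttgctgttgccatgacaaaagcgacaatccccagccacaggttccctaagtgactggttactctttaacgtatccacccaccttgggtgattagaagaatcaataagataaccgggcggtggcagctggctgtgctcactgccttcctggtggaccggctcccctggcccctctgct
Hnf4a second window: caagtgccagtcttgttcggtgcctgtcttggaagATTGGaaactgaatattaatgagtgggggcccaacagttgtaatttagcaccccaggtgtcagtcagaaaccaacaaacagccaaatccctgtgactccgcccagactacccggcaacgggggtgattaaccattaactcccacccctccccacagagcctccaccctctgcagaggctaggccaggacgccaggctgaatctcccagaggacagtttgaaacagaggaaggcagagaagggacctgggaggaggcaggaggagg
The Nr1i2 window held 3 matches, with first bases at -136 (AGTTCA), -83 (CCAAT, other strand) and -57 (AGAACA) from the start. The Nr1i3 window held 0 matches, and each Hnf4a window held 1 CCAAT, at -160 and -215. Among the 11 windows AGGTCA occurred in 0 (16.2% of all 33469 rat windows), AGTTCA in 3 (14.5% of all), AGAACA in 2 (20.7%), TATAAA in 0 (14.2%) and CCAAT in 4 (37.5%). A match describes these letters only.

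The deposited value is 1 score per probe set and array, with a scale and log base that are not given, so a difference of scores is not read as a fold change. Array medians lay between 0.00528 and 0.0585, so a score near 0 is near the middle of the array. Hepatocyte markers were high on all 32 arrays, with Alb between 4.76 and 9.01. The extraction protocol names testis while the titles name liver, and some sperm transcripts were measurable: Prm1 ran from -0.329 to 3.15. The summed score of 8 measured testis markers of 10 listed ran from -1.18 to 3.6 in controls, 1.6 to 7 and 0.995 to 7.5 with myclobutanil (500 and 2000 ppm), 0.366 to 1.88 and 1.4 to 2.04 with propiconazole (500 and 2500 ppm), and 0.497 to 5.87 and -1.24 to 6.75 with triadimefon (500 and 1800 ppm). Insl3 (-0.0297 to 0.186) and Akap4 (-0.187 to 0.201) stayed near 0. The 3′–5′ difference, the 3′ probe set score less the 5′ one averaged over GAPDH and β-actin, grows as RNA degrades. It was 1.3 ± 0.595 (SD) in controls, 1.49 ± 0.375 with triadimefon at 1800 ppm, 1.21 ± 0.849 with myclobutanil at 500 ppm and 0.518 to 0.694 in the means of the other groups. The GAPDH difference alone exceeded 0.9 on 9 arrays: 4 controls (replicates 4 to 7), 2 livers with myclobutanil at 500 ppm (1 and 5) and 3 with triadimefon at 1800 ppm (2 to 4). The number of arrays limits the precision, and in whole tissue fewer cells of a type and less RNA per cell cannot be told apart.

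None of the 9 genes differed from the controls past the threshold (limma, Benjamini-Hochberg adjusted p of at most 0.05 over 31042 probe sets) in any of the 6 treated groups. CAR and PXR had higher mean scores than the controls in every treated group, by 0.00295 to 0.476 for Nr1i2 and by 0.164 to 0.427 for Nr1i3. Over all alternatives Nr1i2 came as near to 0 as 0.00413 with triadimefon at 500 ppm and 0.0356 with myclobutanil at 2000 ppm. With triadimefon at 1800 ppm its sign changed in 10 of 26 alternatives. With propiconazole its lowest values were 0.288 at 500 ppm and 0.113 at 2500 ppm. Nr3c1 had a lower mean in every treated group, by values of -0.0931 to -0.496. The share of all probe sets called was 0.0644% with myclobutanil at 2000 ppm, 0.254% with propiconazole at 2500 ppm, 1.17% with triadimefon at 1800 ppm, 0% with myclobutanil and with propiconazole at 500 ppm, and 0.00966% with triadimefon at 500 ppm, so 0 of 9 was near the background in each. At an unadjusted p under 0.05 the members counted 4 of 9 with myclobutanil at 2000 ppm (24.2% of all probe sets), 6 with propiconazole at 2500 ppm (19.9%), 0 with triadimefon at 1800 ppm (10.8%), 0 with myclobutanil at 500 ppm (4.13%), 2 with propiconazole at 500 ppm (9.23%) and 6 with triadimefon at 500 ppm (29.3%). The 6 comparisons share the same 7 control arrays and are not independent of each other.

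**Figure D1:**
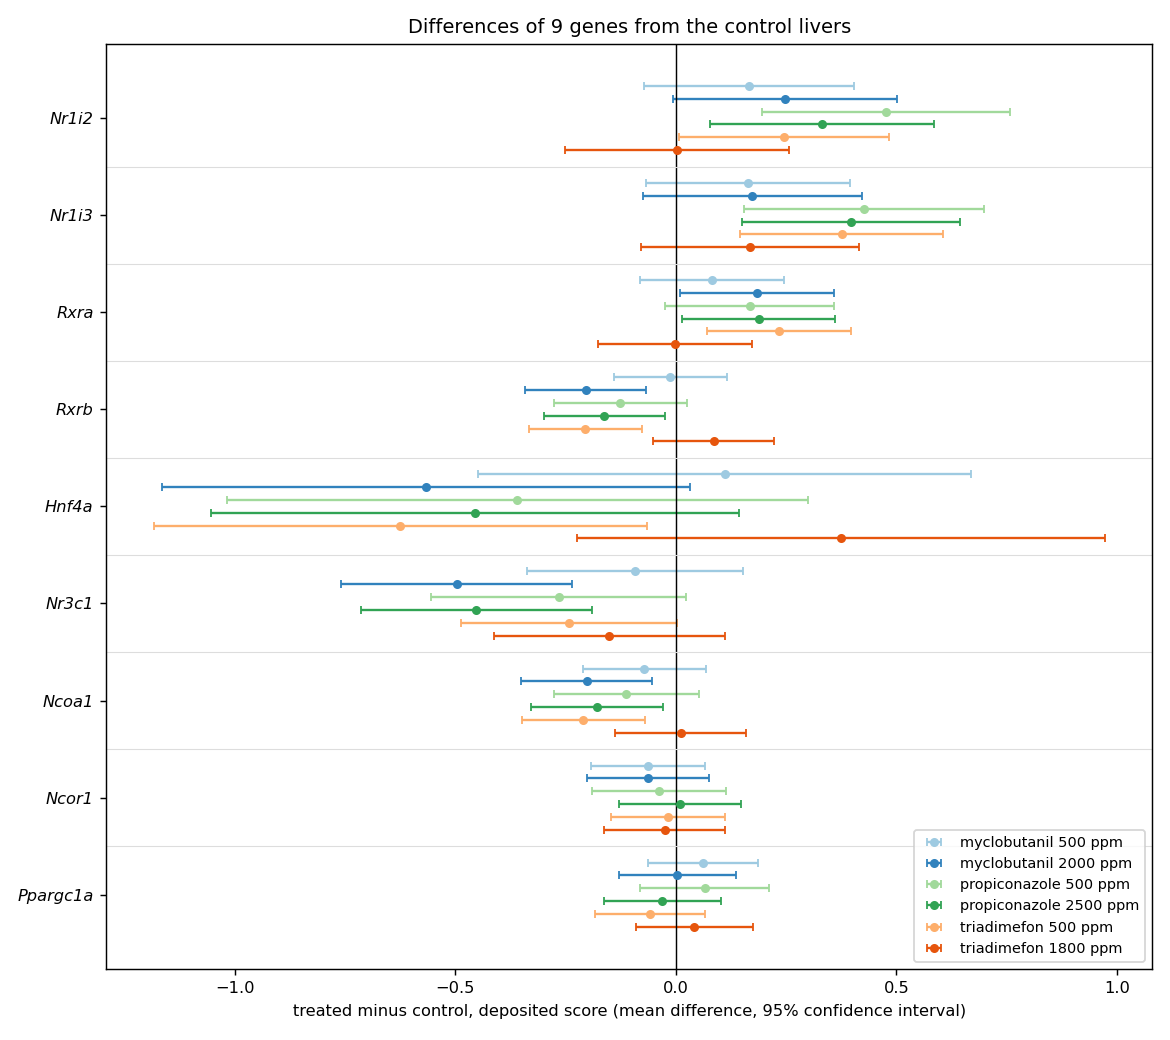
Mean difference of each treated group from the 7 controls for the main probe set of 9 genes (x axis: deposited score; bars: 95% confidence intervals of the limma fit; colours: treated groups). Nr1i2 and Nr1i3 lie at or to the right of 0 and Nr3c1 to the left in all 6 groups, Hnf4a has the widest intervals, and no difference passed the adjusted threshold.

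PXR transcript scores in the 7 controls fell into separate levels. Nr1i2 was 1.17, 1.12 and 1.17 in controls 1 to 3 and 0.819, 0.853, 0.849 and 0.817 in controls 4 to 7, which are the 4 controls of high 3′–5′ difference. With propiconazole at 500 ppm it was 1.39, 1.68 and 1.28, and with propiconazole at 2500 ppm 1.41, 1.35, 1.25 and 1.2. All 7 propiconazole livers lay above every control. The difference was 0.476 ± 0.137 (SE) at 500 ppm (limma adjusted p = 0.536) and 0.331 ± 0.124 at 2500 ppm (adjusted p = 0.166), neither past the threshold. The share of probe sets with every treated array above every control was 0.287% at 500 ppm and 0.767% at 2500 ppm. Triadimefon at 500 ppm gave 1.31, 1.12, 1.19, 1.32 and 1.14, of which 3 lay above all controls (difference 0.245 ± 0.116, adjusted p = 0.16). Triadimefon at 1800 ppm gave 1.27, 0.633, 1.21 and 0.791, of which 2 lay above and 2 below all controls, so that its mean of 0.976 was next to the control mean of 0.973. With myclobutanil the difference was 0.166 ± 0.116 at 500 ppm and 0.247 ± 0.124 at 2000 ppm (adjusted p = 0.9996 and 0.217). From highest to lowest the group means ran from propiconazole 500 ppm (1.45) over propiconazole 2500 ppm, myclobutanil 2000 ppm, triadimefon 500 ppm, myclobutanil 500 ppm and triadimefon 1800 ppm to the controls, and every group overlapped its neighbour in that order.

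Nr1i3 was lowest in the controls, where it ran from 0.392 to 0.763 with a median of 0.604. With propiconazole at 500 ppm it was 0.917, 1.25 and 0.879, all above every control, as in 0.287% of probe sets. With propiconazole at 2500 ppm it was 1.32, 0.733, 0.898 and 0.987, with 3 of 4 above every control. The differences were 0.427 ± 0.133 (adjusted p = 0.536) and 0.397 ± 0.12 (adjusted p = 0.113). Over all alternatives they came as near to 0 as 0.311 and 0.286, and 0 of 23 and 0 of 24 alternatives passed. Triadimefon at 500 ppm gave 1.15, 0.934, 1.27, 0.535 and 0.913, so that 4 of 5 livers lay above every control and replicate 4 lay among them (difference 0.376 ± 0.113, adjusted p = 0.0759). Triadimefon at 1800 ppm gave a narrow 0.706, 0.778, 0.756 and 0.779 (difference 0.169 ± 0.12, adjusted p = 0.699). Myclobutanil gave differences of 0.164 ± 0.113 at 500 ppm and 0.174 ± 0.12 at 2000 ppm. Neighbours in the order of Nr1i3 means, from 1.01 with propiconazole at 500 ppm to 0.586 in controls, all overlapped.

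The Cyp2b probe set, the classical readout of CAR activity, did not follow the order of the CAR transcript. Its mean was 2.51 in controls and 5.44 with triadimefon at 1800 ppm, its highest, where the Nr1i3 mean of 0.755 ranked 5 of 7. It rose by 2.93 ± 0.309 with triadimefon at 1800 ppm, 2.22 ± 0.309 with propiconazole at 2500 ppm and 1.72 ± 0.309 with myclobutanil at 2000 ppm (limma adjusted p = 1.95e-06, 0.000863 and 0.0317). The Cyp2b call held in 26 of 26 and 24 of 24 alternatives for the first pair of groups, but in 14 of 24 for myclobutanil at 2000 ppm (1.5 to 2.17, adjusted p up to 0.172), where it was lost without any 1 of controls 4 to 7 or of replicates 2 to 4 of that group. At 500 ppm the Cyp2b differences were 1.45 with myclobutanil, 1.48 with propiconazole and 1.49 with triadimefon, with every treated liver above every control (as in 0.0322%, 0.287% and 0.132% of probe sets) but no adjusted p at the threshold (0.734, 0.527 and 0.0501).

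**Figure D2:**
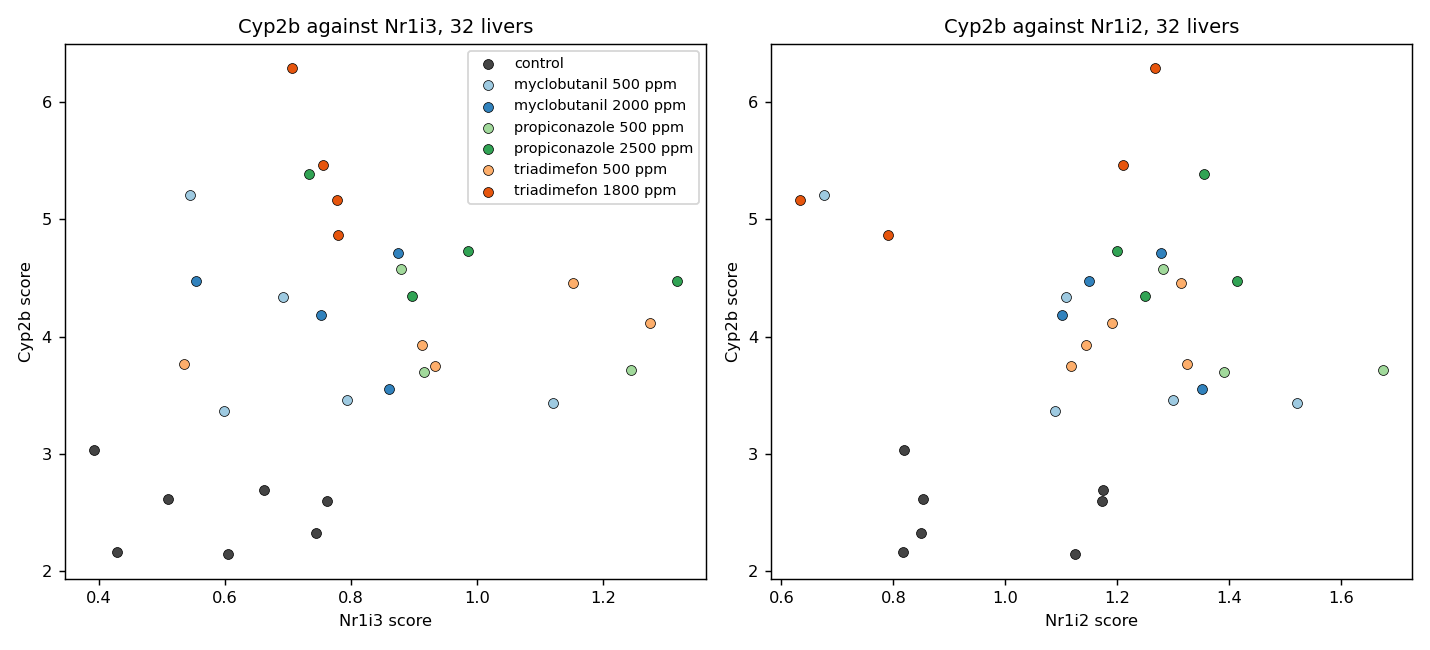
Score of the Cyp2b probe set (y axis) against the score of Nr1i3 (left) and Nr1i2 (right) in each of 32 livers, coloured by group. The 4 livers of triadimefon at 1800 ppm have Cyp2b scores of 4.86 to 6.28 at Nr1i3 scores of 0.706 to 0.779 and at Nr1i2 scores on both sides of the controls.

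The retinoid X receptors moved in opposite directions between the same arrays. Rxra was 0.363, 0.424 and 0.5 in controls 1 to 3 and 0.0883 to 0.164 in controls 4 to 7. Rxrb was 0.289, 0.342 and 0.272 in controls 1 to 3 and 0.496 to 0.634 in controls 4 to 7. Both genes thus had a split among untreated livers, with no overlap between the arrays of high GAPDH difference and the rest. With triadimefon at 500 ppm Rxra was 0.432, 0.412, 0.535, 0.49 and 0.586 (difference 0.234 ± 0.0794, adjusted p = 0.0857), which overlapped controls 1 to 3. There Rxrb was 0.241, 0.284, 0.218, 0.239 and 0.222, with 4 of 5 below every control (difference -0.206 ± 0.0624, adjusted p = 0.0759). With myclobutanil at 2000 ppm Rxrb was 0.253, 0.215, 0.24 and 0.261, all below every control, against 3.24% of probe sets with that pattern (difference -0.204 ± 0.0668, adjusted p = 0.105). Rxrb means ran from 0.533 with triadimefon at 1800 ppm to 0.241 with triadimefon at 500 ppm, and Rxra means from 0.491 with triadimefon at 500 ppm to 0.256 with triadimefon at 1800 ppm, with neighbours overlapping in both orders. Over the 32 arrays the Pearson r of Rxra with Rxrb was -0.802, and 0.0077 once a linear fit on the 3′–5′ difference had been taken out of both. These points share groups and RNA quality, and the values are a description.

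Hnf4a had the widest spread of the 9 genes in untreated livers, with controls at 2.8, 3.71, 2.83, 3.89, 3.5, 3.12 and 4.09. Triadimefon at 1800 ppm gave 4.42, 3.37, 3.8 and 3.6 and triadimefon at 500 ppm 2.92, 2.62, 2.76, 2.93 and 2.76. The controls spanned most of the distance between these groups. The difference from controls was 0.374 ± 0.292 at 1800 ppm (adjusted p = 0.736) and -0.625 ± 0.272 at 500 ppm (adjusted p = 0.136). The livers with propiconazole at 2500 ppm lay within a narrow 2.94 to 3 (difference -0.455 ± 0.292), and those with myclobutanil at 2000 ppm between 2.63 and 3.1 (difference -0.566 ± 0.292). Myclobutanil at 500 ppm held the highest single liver, replicate 1 at 4.96, which was also the array with the largest 3′–5′ difference, 2.45. Neighbouring groups in the order of Hnf4a means, from 3.8 with triadimefon at 1800 ppm to 2.8 with triadimefon at 500 ppm, overlapped in each case. Over all alternatives the difference reached -0.0223 with triadimefon at 500 ppm, -0.0365 with myclobutanil at 2000 ppm and 0.0776 with propiconazole at 2500 ppm. Another Hnf4a probe set, 1369289_at, lay the other way in these groups. Its mean was 0.68 in controls, against 1.048, 0.991 and 1.055 in the same order. The probe set 1382496_at had means of 0.799 in controls, against 0.833, 0.857 and 0.899.

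The glucocorticoid receptor transcript gave the smallest adjusted p of the 9 genes against controls at the high levels of myclobutanil and propiconazole. Nr3c1 in controls ran from 1.67 to 2.21 with a median of 1.82. With myclobutanil at 2000 ppm it was 1.3, 1.33, 1.28 and 1.5, and with propiconazole at 2500 ppm 1.41, 1.44, 1.29 and 1.44. All 8 livers lay below every control, a pattern shown by 3.24% and 2.07% of probe sets. The differences were -0.496 ± 0.128 (limma adjusted p = 0.0773) and -0.452 ± 0.128 (adjusted p = 0.0955). The intervals ran from -0.758 to -0.234 and from -0.714 to -0.19. The second passed after quantile normalisation (-0.349 ± 0.086, adjusted p = 0.0443), where 1% of probe sets passed. Both passed without control 3 (-0.525, adjusted p = 0.0232, and -0.481, adjusted p = 0.0438), where 9.71% and 3.32% of all probe sets passed. These were 1 of 24 alternatives for myclobutanil and 2 of 24 for propiconazole that called Nr3c1. With RNA integrity as a covariate the differences were -0.311 ± 0.114 and -0.265 ± 0.114 (adjusted p = 0.692 and 0.595), and over all alternatives they came as near to 0 as -0.221 and -0.189. Triadimefon at 1800 ppm gave 1.31, 1.74, 1.88 and 1.87, so that replicate 1 alone lay below the controls (difference -0.15 ± 0.128, adjusted p = 0.767). In the order of Nr3c1 means the controls stood first and myclobutanil at 2000 ppm (1.35) last. Propiconazole at 500 ppm (1.58) and at 2500 ppm (1.4) did not overlap, as in 1.91% of probe sets, and were the only such pair among 54 neighbouring pairs of groups over the 9 genes.

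The second Nr3c1 probe set, 1368222_at, lay below the middle of the array, with a mean of -0.119 and 34.45% of probe sets lower. It did not give the same difference. It differed from controls by 0.0546 ± 0.0746 with myclobutanil at 2000 ppm and by 0.0733 ± 0.0746 with propiconazole at 2500 ppm (adjusted p = 0.662 and 0.574). The lower Nr3c1 score is therefore a value of 1 of its 2 probe sets.

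Among the coregulators, Ncoa1 had lower mean scores in 5 of 6 treated groups. The controls ran from 0.62 to 1.06 with a median of 0.97, and no treated group was free of overlap with them. The differences were -0.209 ± 0.0679 with triadimefon at 500 ppm (adjusted p = 0.0827), -0.202 ± 0.0727 with myclobutanil at 2000 ppm (0.119) and -0.178 ± 0.0727 with propiconazole at 2500 ppm (0.189). The group means of the main Ncor1 probe set lay between 1.12 and 1.2, and its interval against controls ran from -0.146 to 0.111 with triadimefon at 500 ppm. Another Ncor1 probe set, 1384293_at, had a mean of 0.81 in controls, which ran from 0.266 to 1.119. Its mean was 0.441 with myclobutanil at 2000 ppm, 0.498 with propiconazole at 2500 ppm and 0.525 with triadimefon at 500 ppm. With triadimefon at 1800 ppm it was 0.741. Ppargc1a lay near the middle of the array, with group means between -0.0298 and 0.0937, and 50.5% of probe sets had a lower mean. Its differences from controls ran from -0.0584 to 0.0651, and the 95% interval held 0 in each of the 6 comparisons.

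With triadimefon at 500 ppm, leaving out 1 control brought 4 genes past the threshold at once. Without control 1 these were Nr1i3 (0.405, adjusted p = 0.0342), Rxra (0.252, 0.0472), Rxrb (-0.232, 0.0305) and Ncoa1 (-0.228, 0.0406), and without control 3 the same 4 genes. The share of all probe sets called moved with them, from 0.00966% to 12.1% and 14.4%. Without control 3 Rxrb (-0.233, adjusted p = 0.0326), Nr3c1 and Ncoa1 (-0.249, 0.0275) passed with myclobutanil at 2000 ppm. Controls 1 and 3 had 3′–5′ differences of 0.643 and 0.5, the lowest of the 7. With triadimefon at 500 ppm these leave-outs were 2 of 25 alternatives, and no other called any of the 4 genes. With RNA integrity as a covariate Rxra differed there by 0.0565, Rxrb by -0.0371, Ncoa1 by -0.0692 and Nr1i3 by 0.275, each with an adjusted p of 0.9996.

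**Figure D3:**
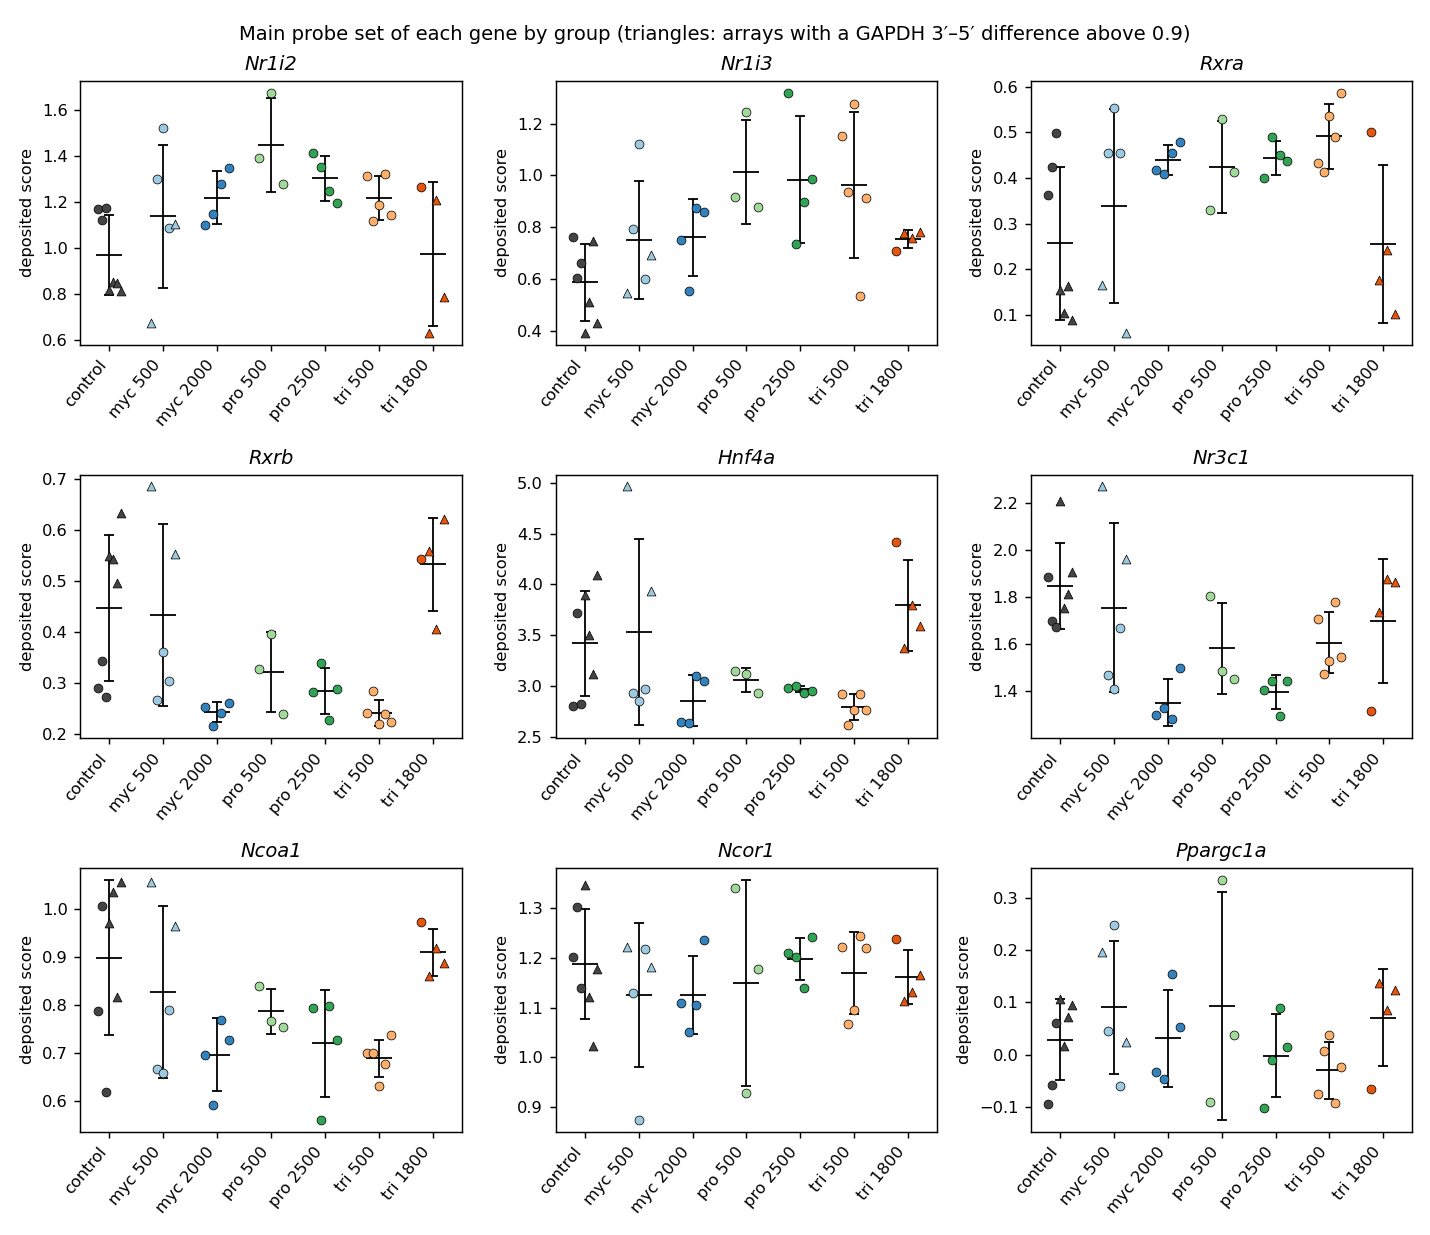
Score of the main probe set of 9 genes in each liver (y axes: deposited score, not starting at 0; x axes: groups, with myc, pro and tri for the compounds and the level in ppm; bars: mean and SD). Triangles mark the 9 arrays with a GAPDH 3′–5′ difference above 0.9; among controls they lie below the circles for Nr1i2 and Rxra and above them for Rxrb.

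The comparison of triadimefon at 1800 and at 500 ppm was the only one of 12 in which any of the 9 genes passed. Rxrb, Hnf4a and Ncoa1 rose, 3 of 9, against 24.8% of all probe sets called and 22.3% called in that direction, so the members' share was near the background. Rxrb was higher by 0.292 ± 0.0715 (limma adjusted p = 0.00863), Hnf4a by 0.999 ± 0.312 (adjusted p = 0.0247) and Ncoa1 by 0.22 ± 0.0778 (adjusted p = 0.0406). For each of these genes the 4 livers at 1800 ppm all lay above the 5 at 500 ppm, as in 21.8% of probe sets. Ncoa1 was 0.973, 0.86, 0.919 and 0.887 against 0.7, 0.7, 0.631, 0.679 and 0.738. Rxra lay the other way (-0.235 ± 0.0909, adjusted p = 0.0573), as did Nr1i2 (-0.242 ± 0.133, adjusted p = 0.166) and Nr1i3 (-0.207 ± 0.129, adjusted p = 0.222).

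RNA integrity differed between these groups: the 3′–5′ difference was 1.16 to 1.86 on the arrays at 1800 ppm and 0.469 to 0.577 at 500 ppm, with no overlap. Once it entered the model as a covariate, none of the 3 genes passed: Rxrb was 0.0819 ± 0.0344 (limma adjusted p = 0.29), Hnf4a 0.249 ± 0.246 (0.7) and Ncoa1 0.0456 ± 0.0661 (0.812), and 0.283% of all probe sets passed. Only replicate 1 at 1800 ppm was below the GAPDH limit of 0.9. Without the 9 arrays above it, that single liver differed from 500 ppm by 0.303 for Rxrb, 1.62 for Hnf4a and 0.283 for Ncoa1 (adjusted p = 0.000131, 3.47e-05 and 0.0481, with its spread taken from the other groups), where 23.5% of all probe sets passed. Its own 3′–5′ difference of 1.17 was still above every liver at 500 ppm. Replicates 2 to 4 also carry animal numbers above 3000 in the titles, as do 3 controls and no other liver. With number series as block, 0 of the 9 genes passed and 2.46% of all probe sets did. Ncoa1 missed the threshold when any 1 of the 9 arrays was left out (adjusted p up to 0.0818), and Hnf4a missed it without replicate 1 at 1800 ppm (0.792 ± 0.33, adjusted p = 0.0741).

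Markers of other liver cells were also higher at 1800 than at 500 ppm of triadimefon, against 22.3% of all probe sets called higher. Hepatocyte markers were higher as well, in 7 of 7 measured, though 0 passed. Their median difference was 0.834, against 0.528 for Kupffer cell markers and 0.0909 over all genes. Of Kupffer cell markers 6 of 8 measured rose (summed score 10.4 to 14 against 5.26 to 10.7), of stellate cell markers 5 of 9 (8.34 to 9.57 against 5.75 to 7.61) and of sinusoidal endothelial markers 3 of 6 (8.84 to 9.78 against 6.57 to 7.99). Of biliary markers 2 of 5 rose (0.643 to 1.18 against 0.206 to 0.411) and of lymphocyte markers 3 of 5 (-0.28 to 0.204 against -0.975 to -0.25). Cd3e (0.0315 against -0.0882) was near the middle of the array in both groups. With RNA integrity as a covariate 0 of these markers passed (limma). Their part in the higher Rxrb, Hnf4a and Ncoa1 scores was not tested.

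The high and low levels of the other compounds did not differ past the threshold for any of the 9 genes (limma), and 0% of all probe sets passed in either comparison. Between myclobutanil at 2000 and 500 ppm, 3 genes had an unadjusted p under 0.05 (11% of probe sets): Rxrb (-0.191 ± 0.0715), Hnf4a (-0.676 ± 0.312) and Nr3c1 (-0.403 ± 0.137), each with an adjusted p of 0.447. At 500 ppm the livers with high 3′–5′ difference, replicates 1 and 5, were the highest for each of these genes: 2.27 and 1.96 for Nr3c1 against 1.41 to 1.67 in replicates 2 to 4. Between propiconazole at 2500 and 500 ppm 0 genes had an unadjusted p under 0.05 (1.18% of probe sets). Nr1i2 and Nr1i3 there differed by -0.145 (95% interval -0.455 to 0.165) and -0.0295 (-0.331 to 0.272).

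At the matched level of 500 ppm the 3 compounds gave 3 pairs, and 0 of 9 genes passed in each pair (limma, 0% of all probe sets called in each). Nr1i3 differed by -0.263 between myclobutanil, the nitrile, and propiconazole, the ketal (95% interval -0.551 to 0.0246), by -0.212 between myclobutanil and triadimefon, the ketone (-0.461 to 0.0374), and by 0.0514 between propiconazole and triadimefon (-0.237 to 0.339). Nr1i2 differed by -0.31 between myclobutanil and propiconazole (-0.607 to -0.0137, adjusted p = 0.855), the only unadjusted p under 0.05 of the 9 genes in that pair (4.29% of probe sets). It differed by -0.0789 between myclobutanil and triadimefon (-0.336 to 0.178) and by 0.231 between propiconazole and triadimefon (-0.0652 to 0.528). The intervals are wide, so equal levels were not shown. Most admit differences as large as those of propiconazole at 500 ppm from the controls, 0.427 for Nr1i3 and 0.476 for Nr1i2. The exceptions were Nr1i3 between propiconazole and triadimefon and Nr1i2 between myclobutanil and triadimefon, whose intervals ended short of that size. Between myclobutanil and triadimefon, Rxrb (0.193, 0.0544 to 0.331) and Hnf4a (0.735, 0.132 to 1.34) had an unadjusted p under 0.05 (19.1% of probe sets; adjusted p = 0.237 and 0.24). Between propiconazole and triadimefon 0 genes did (2.49% of probe sets). The 3 propiconazole livers nonetheless lay above all 5 triadimefon livers for Hnf4a (2.927 to 3.146 against 2.618 to 2.926) and Ncoa1 (0.755 to 0.84 against 0.631 to 0.738), 2 of 9 genes against 4.02% of probe sets.

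The scores of these genes were also fitted on RNA integrity within groups. A slope on the 3′–5′ difference, fitted with the groups as terms, passed for 6 of the 9 main probe sets, against 47.1% of all probe sets, 37.5% positive and 9.63% negative (limma adjusted p of at most 0.05), a count near the background. Per unit of difference it was negative for Nr1i2 (-0.309, adjusted p = 0.000164) and Rxra (-0.228, 2.33e-05). It was positive for Rxrb (0.216, 1.16e-09), Hnf4a (0.771, 3.46e-05), Nr3c1 (0.271, 0.00259) and Ncoa1 (0.179, 0.000194). It did not pass for Nr1i3 (-0.129, adjusted p = 0.184), Ncor1 (0.0203, 0.74) and Ppargc1a (0.0891, 0.0753). After quantile normalisation the slopes of Nr1i2 (-0.415), Rxra (-0.262), Rxrb (0.153) and Hnf4a (0.252) still passed, those of Nr3c1 (0.0224, adjusted p = 0.8) and Ncoa1 (0.063, 0.0998) did not, and that of Ncor1 became -0.122 (0.00658), so that 5 of 9 passed, with 37.1% of all probe sets passing. Nr1i3 was thus the receptor for which no slope passed either way (adjusted p = 0.0672 after quantile normalisation).

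**Figure D4:**
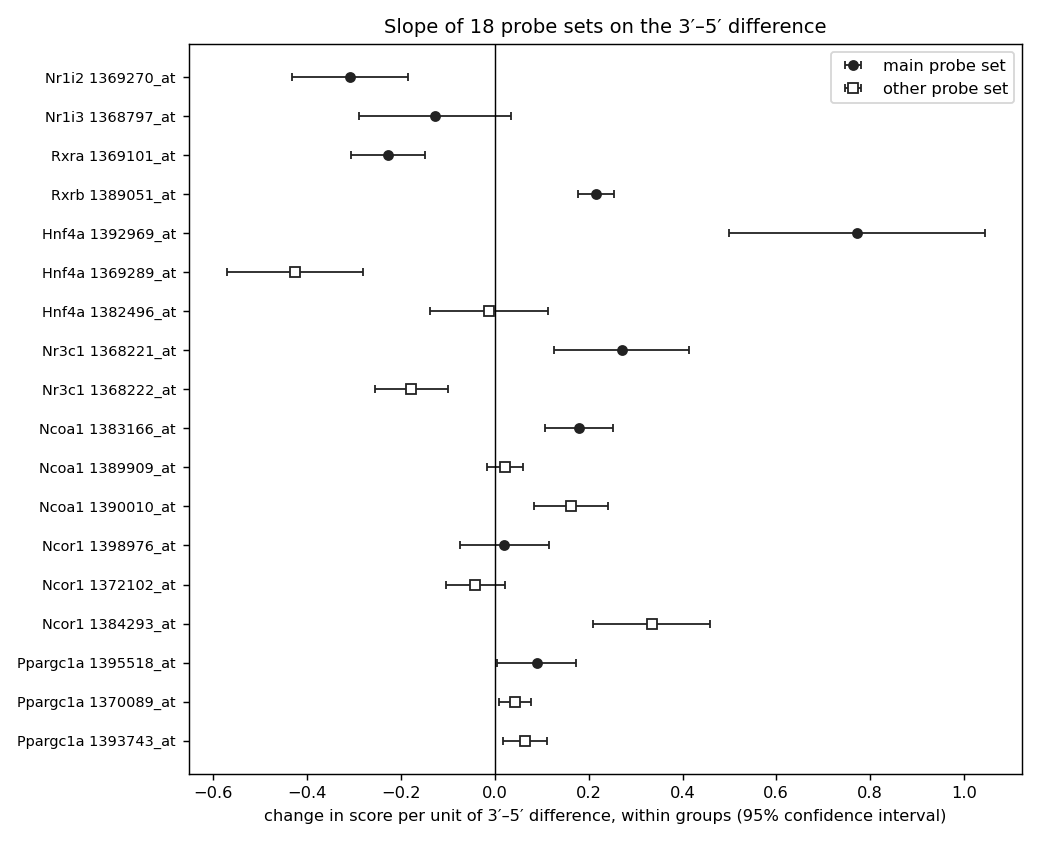
Change in score per unit of 3′–5′ difference within groups for all 18 probe sets of the 9 genes (points: slope of the limma fit; bars: 95% confidence intervals; filled: main probe set; open: other probe sets). Slopes of Hnf4a run from -0.426 to 0.771 and those of Nr3c1 from -0.178 to 0.271, so probe sets of 1 gene lie on both sides of 0.

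Probe sets of 1 gene disagreed in a way that tracked the same measure. For Hnf4a the slope was 0.771 for the main probe set, -0.426 for 1369289_at (adjusted p = 2.3e-05) and -0.0128 for 1382496_at (0.88). In controls 1 to 3, 1369289_at lay between 0.943 and 1.02, and in controls 4 to 7 between 0.36 and 0.509. Between triadimefon at 1800 and 500 ppm the 3 Hnf4a probe sets gave 0.999 ± 0.312, -0.414 ± 0.17 (adjusted p = 0.0713) and 0.0964 ± 0.0948 (0.446). The mean over the 3 Hnf4a probe sets was 0.227 ± 0.119 higher (adjusted p = 0.148), so the rise of Hnf4a rests on the choice of probe set. For Nr3c1 the second probe set fell by 0.313 (SE 0.0799, adjusted p = 0.0103) while the main one differed by 0.0909 ± 0.137. For Ncoa1 the probe set 1390010_at rose with the main one (0.297 ± 0.0772, adjusted p = 0.0111) and 1389909_at, at -0.371 to -0.168 on every array, differed by 0.0383 ± 0.0302. The dim Ppargc1a probe sets 1370089_at and 1393743_at rose by 0.088 ± 0.0292 and 0.159 ± 0.0404 (adjusted p = 0.0314 and 0.0102). Ncor1 had 1 probe set with a slope, 1384293_at (0.334, adjusted p = 6.77e-05), which ran from 0.251 to 1.12, while its main one had none.

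**Figure D5:**
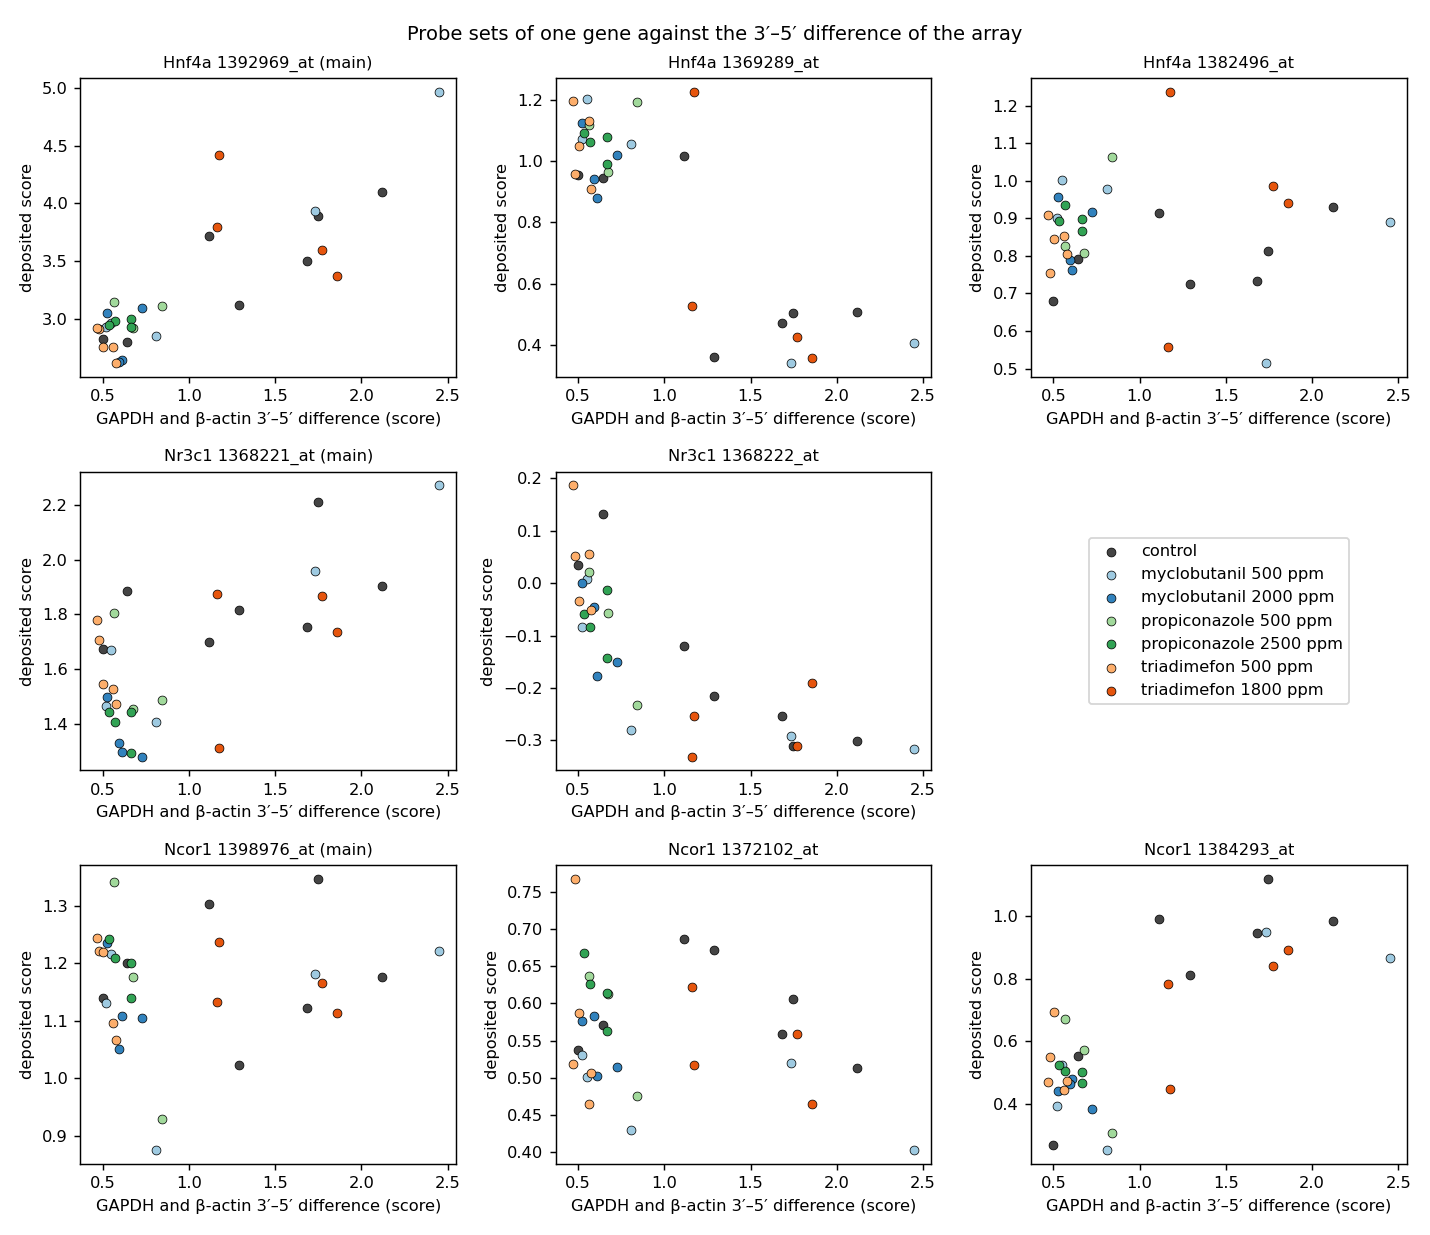
Score of each probe set of Hnf4a, Nr3c1 and Ncor1 (y axes: deposited score) against the 3′–5′ difference of the array (x axes: score), 1 point per liver, coloured by group. In controls the main Hnf4a probe set runs from 2.8 to 3.71 on arrays of low GAPDH difference and 3.12 to 4.1 on the others, and Hnf4a 1369289_at from 0.943 to 1.02 and 0.36 to 0.509. With triadimefon at 1800 ppm the main Hnf4a probe set is highest, 4.42, on replicate 1, the only array below the GAPDH limit. Its plotted difference of 1.174 is not the lowest of that group, as replicate 3 has 1.163.

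Genes around these receptors were counted in lists that do not hold the 9 members. The lists were chosen with earlier results of these data known, so their shares beside those of all probe sets are a description. With triadimefon at 1800 ppm against controls, 10 of 21 measured CAR and PXR targets rose (median difference 0.87, against 0.0313 over all genes), among them Ces2c, a carboxylesterase (1.75 ± 0.164), Abcc3, an efflux transporter (0.812 ± 0.0801), and Aldh1a1, an aldehyde dehydrogenase (2.28 ± 0.255). That was against 1.04% of all probe sets higher. With propiconazole at 2500 ppm 4 of 21 rose, against 0.132% higher (median 0.302 against -0.0415 over all genes): Ces2c by 1.21, Abcc3 by 0.48, Aldh1a1 by 1.53 and Ugt2b1, a glucuronosyltransferase, by 1.25. Markers of other cells that rose with triadimefon at 1800 ppm were Rgs5 (0.323) and Col1a2 (0.313), 2 of 9 stellate cell markers, and Epcam (0.72), 1 of 5 biliary markers. Their part in the target genes' rise was not tested. Of 28 other nuclear receptors and ligand-sensing factors, 0 passed with triadimefon at 1800 ppm and 1 with propiconazole at 2500 ppm: Ahr, the dioxin receptor, rose from -0.00448 to 0.465 (adjusted p = 0.0452). With RNA integrity as a covariate Ahr instead passed with triadimefon at 1800 ppm (0.375 ± 0.0965, limma adjusted p = 0.0379) and not with propiconazole at 2500 ppm. Of 12 genes of the receptors' chaperone complex and its partners, 1 rose with triadimefon at 1800 ppm, Gadd45b, a stress-inducible coactivator of CAR (0.494 ± 0.056, adjusted p = 6.27e-06). With myclobutanil at 2000 ppm, and at 500 ppm of any compound, 0 members of these lists passed in the fit without a covariate (limma). With the covariate Ugt2b1 passed with myclobutanil at 2000 ppm (1.31 ± 0.223, adjusted p = 0.0475).

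Between triadimefon at 1800 and 500 ppm more of the neighbours passed, against 22.3% of all probe sets higher. Of the 28 receptors 5 rose: Ppard (0.422 ± 0.107), Nr2f6 (0.458 ± 0.127), Nr2f1 (0.207 ± 0.0617), Nr1h3, the oxysterol receptor LXRα (0.624 ± 0.197), and Nr5a2 (0.352 ± 0.113). Of 19 other coregulators 6 rose, with Smarca4, a chromatin remodeller (0.271 ± 0.0609), Tbl1x, a subunit of the NCoR complex (0.696 ± 0.212), and Hdac3, its deacetylase (0.219 ± 0.0673). Of 15 liver transcription factors 3 rose, Cebpd (0.243), Cebpb (0.755) and Cebpa (0.626), and Arnt fell by 0.147. Of 12 chaperone complex genes and partners 4 rose, Fkbp5 (0.375), Gadd45b (0.5), Psmc4 (0.499) and Tsc22d3 (0.779), and Stip1, a cochaperone, fell by 0.215. Of 14 glucocorticoid receptor targets 4 rose, Fkbp5 and Tsc22d3 again, Igfbp1 (0.8) and Klf9 (0.793), and of 12 HNF4A targets 1, Proc (0.916). CAR and PXR targets rose in 14 of 21. After adjustment for RNA integrity by that covariate, 0 of 28 receptors, 0 of 19 coregulators and 0 of 15 liver factors passed, while 4 of 21 CAR and PXR targets did: Alas1, Ces2c, Aldh1a1 and Abcc3 (median of the list 0.485). Gadd45b of the chaperone list passed as well (0.467 ± 0.0702, adjusted p = 0.00125).

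The genes most like each member over the 32 arrays were found by Pearson r after a linear fit on the 3′–5′ difference. Nr1i2 was nearest to Slc25a22 (r = 0.795 after and 0.145 before that fit) and Zfp446 (0.79 and 0.713). Nr1i3 had the weakest partners, Parp8 (0.704 and 0.0234) and Spice1 (0.688 and 0.542). Rxra was nearest to Grina (0.827 and -0.075), Rxrb to Wdr24 (0.8 and 0.87), Hnf4a to Aldh3a2 (0.923 and 0.934), Nr3c1 to Snapc1 (0.805 and 0.893), Ncoa1 to Efna5 (0.838 and 0.786), Ncor1 to Hnrnpu (0.844 and 0.527) and Ppargc1a to Mapt (0.888 and 0.901). The next were Tmem151a (0.801) for Rxra, Slc35a4 (0.759) for Rxrb, Btg1 (0.916) for Hnf4a, Tgfbr1 (0.8) for Nr3c1, Csnk2a2 (0.78) for Ncoa1, Cxcl11 (0.838) for Ncor1 and Pln (0.879) for Ppargc1a. Among the members, the r of Nr1i2 with Nr1i3 was 0.614 before and 0.409 after the fit, that of Rxrb with Hnf4a 0.844 and 0.252, and that of Hnf4a with Ncoa1 0.857 and 0.542. The arrays share treatments as well as RNA quality, and each r is a description.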

How the data were processed

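Liver RNA of 32 rats was hybridised to Affymetrix expression arrays of the rat genome, per the labels. The authors deposited 1 score per probe set and array; how they summarised and normalised it, and its scale, log base and centring, are not stated in the labels or headers, and no transformation was applied before the fit. The 57 control probe sets were left out of the tests. Platform annotation gave 1 symbol to 20826 of 31042 probe sets, several to 436 and none to 9780. All 7 groups entered 1 model in limma 3.58.1 (R 4.3.3; package data.table, version 1.17.8; Python 3.11.15 with pandas 2.3.3 and matplotlib 3.10.9) with lmFit and eBayes, 25 residual and 1.995 prior degrees of freedom. Tests were two-sided, with Benjamini-Hochberg adjustment over all probe sets of a comparison and a threshold of 0.05. The fit was tested on simulated data with independent noise for each probe set. These data held no RNA integrity effect, so that test does not bear on integrity. Named were all 9 members, up to 3 members of smallest p past the threshold per pathway list, the Cyp2b probe set, and the 2 genes most correlated with each member. The members and lists were chosen with earlier results of these data known. Further list members past the threshold were named where a list's count was 5 or fewer, and cell type markers as examples, after their values were seen. Alternatives covered normalisation, scaling, filters, integrity, number series, replicate block and left-out arrays.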

Additional observations from a re-analysis of the deposited data

Results flagged for a closer look

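A sample far from the others of its group was found in 2 of 54 group and gene pairs tested (Dixon's criterion), 3.7%, where chance gives about 5%. Nr3c1 was 2.21 in control replicate 4, against 1.67 to 1.9 in the other 6 controls. Ncor1 was 0.874 in myclobutanil 500 ppm replicate 3, against 1.13 to 1.22 in the other 4 livers of its group.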

How the results depend on the processing

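The threshold count of the 9 genes moved with the processing in 5 of the 12 comparisons. Between triadimefon at 1800 and 500 ppm 3 genes passed, where 24.8% of all probe sets did. The count was 0 with the 3′–5′ covariate (0.283% of all) and 0 with quantile normalisation plus that covariate. It was 0 with number series as block (2.46% of all), and leaving out 1 array gave 2 each time. Without replicate 1 at 1800 ppm Hnf4a was not among these 2 genes. Rxra, not past the threshold in the main fit, passed in 5 of 22 alternatives (limma adjusted p as low as 0.0208). The fit on animals numbered below 3000 leaves 1 liver at 1800 ppm. Against controls the count of 0 became 1 with propiconazole at 2500 ppm after quantile normalisation (1% of all probe sets). With triadimefon at 1800 ppm it moved when arrays of high 3′–5′ difference were left out. That fit leaves 1 treated liver, so no count is given. That liver lay above the remaining controls by 0.242 for Rxrb and 1.3 for Hnf4a. Leaving out 1 array gave 0 to 3 with myclobutanil at 2000 ppm, 0 to 1 with propiconazole at 2500 ppm and 0 to 4 with triadimefon at 500 ppm. Of 2493 values under alternatives 0 called ones changed sign, 208 uncalled ones did, 26 calls were lost and 23 gained. Correlations of same-numbered arrays ran from -0.666 to 0.596 (median -0.0101), and the median of other pairs was 0.00705. Replicate numbers follow the order of the animal numbers within a group, so these values cannot show or exclude a pairing or shared litter. With the replicate block 4 genes passed between the triadimefon levels. The share of all probe sets called with that block is not given here, so this count has no background beside it. The 24.8% above belongs to the fit without the block. Spike-in scaling, quantile normalisation with the covariate, and the fit on arrays of high 3′–5′ difference were chosen after seeing the data, as were the slopes. The causes were not tested.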
